A study of Sus scrofa with 36 samples.

Results

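The 10 genes described here are genes of brain iron handling, chosen by name: TFRC, TF, FTH1, SLC40A1, SLC11A2, IREB2, ACO1, CP, HMOX1 and STEAP3. Of these 10, 9 had an Ensembl pig identifier among the 31907 gene identifiers of the series, of which 15029 carry a symbol. FTH1, the ferritin heavy chain, had no identifier tied to its symbol and has no value here. SLC11A2 and HMOX1 had 0 counts in every library, as set out below, which left 7 genes with a measured level.

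Cerebellar RNA was sequenced from 36 crossbred piglets of both sexes in a 2 × 2 design of formula fat and birth weight, with 9 piglets in each of 4 groups. VEG piglets received a formula with vegetable oil and MILK piglets one with bovine milk fat, from 3 days of age and for 3 weeks. NBW piglets had a normal birth weight and IUGR piglets were intrauterine growth restricted, chosen for a low birth weight and altered head shape, so that restriction arose naturally and not by a procedure. All were farm-born at term, were fed formula in equal amounts, and came from several litters that the labels do not identify, so p-values here treat piglets as independent. No iron measurement of blood or brain was used here, and the diets differed by fat source, not by an iron treatment. The MILK-IUGR group is given with 9 piglets and the other 3 groups with 8 each, because 1 library of each of these 3 was left out, as described next.

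Over the 33 libraries kept, the reads counted on genes ranged from 15516541 to 23027502 (median 18025540), and 26.7 to 30.5% of read pairs were left without a gene. In the 3 libraries left out this share was 43.6% (piglet 202, VEG-NBW), 64.3% (piglet 210, VEG-IUGR) and 31.5% (piglet 213, MILK-NBW). Piglet 210 had 6513 genes with a count, against 18635 to 19682 in the 33, and had 0 counts of SLC40A1, CP and STEAP3. Its IREB2 level was 200 CPM (counts per 1000000 reads on genes) against 62.1 to 92.4 CPM in the 33 libraries, both without further scaling. All 7 markers listed for cerebellar granule neurons and all 7 for Purkinje cells were measured and passed the filter on low counts. So did all 6 choroid plexus and all 6 endothelial markers with an identifier, so passing it is no test of the labelled tissue.

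Iron reaches the brain mainly bound to transferrin (TF), which is taken up through the transferrin receptor (TFRC). In the endosome the reductase STEAP3 reduces the iron and the transporter DMT1 (SLC11A2) carries it into the cytosol, where ferritin (FTH1 and FTL) stores what is not used. Ferroportin (SLC40A1) exports iron with the help of the copper oxidase ceruloplasmin (CP), haem oxygenase HMOX1 frees iron from haem, and the iron regulatory proteins ACO1 (IRP1) and IREB2 (IRP2) bind the messages of TFRC and ferritin when iron is low. In the brain, oligodendrocytes, the cells that make myelin, are known for their high iron content and for making transferrin. Young piglets are prone to iron deficiency because they are born with small stores and grow fast.

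RefSeq places these genes as follows on Sscrofa11.1, the build that the submitters' processing notes name. TFRC (ENSSSCG00000011848) lies at chr13:133976765-133997554 and CP (ENSSSCG00000011700) at chr13:89396713-89463540. SLC40A1 (ENSSSCG00000027157) lies at chr15:94140635-94161793 and STEAP3 (ENSSSCG00000029304) at chr15:24736556-24785376. IREB2 (ENSSSCG00000001756) lies at chr7:47481539-47529199 and ACO1 (ENSSSCG00000023807) at chr10:33937833-34001895. The symbol TF (ENSSSCG00000011640) is carried by a pair of RefSeq loci close together, chr13:74862502-74907059 and chr13:74930655-74970599. The identifier is not tied to one of them, so how reads of these copies were split is uncertain for every TF value below.

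SLC11A2 (ENSSSCG00000034039) and HMOX1 (ENSSSCG00000039745) were listed at 0 in all 36 libraries. RefSeq puts both on scaffolds without a chromosome. Of 145 protein-coding genes that RefSeq puts on such scaffolds, 145 (100%) had 0 counts in all 36 libraries, against 246 of 13643 (1.8%) of those on chromosomes. The zeros of DMT1 and haem oxygenase 1 are therefore shared with every gene of that kind and are not given as a level, and no limit is drawn from them. The ferritin heavy chain also lacks a value, although RefSeq places FTH1 at chr2:9535051-9537979. Its partner FTL, the ferritin light chain, is given in its place among the other iron genes.

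Levels are given as CPM with TMM scaling, a scaling that makes libraries of different composition comparable, as mean ± SD over the piglets of a group. The summed levels of marker lists further below, and the mean of MBP beside them, are CPM without TMM scaling. They are levels of RNA, also where a protein is named. No protein level was used, so nothing is said of protein amount or activity. Transcript lengths were not used, so levels are compared between piglets and not between genes. Among the genes of uptake, TFRC was at 110.89 ± 15.9 CPM in VEG-NBW (n = 8), 102.3 ± 9.62 in VEG-IUGR (n = 8), 100.6 ± 12.045 in MILK-NBW (n = 8) and 105.6 ± 10.2 in MILK-IUGR (n = 9). The lowest, median and highest piglet were at 84.7, 112.3 and 134 CPM in VEG-NBW, 89.1, 100.1 and 115 in VEG-IUGR, 80.4, 99.8 and 125 in MILK-NBW, and 89.5, 106 and 118 in MILK-IUGR. The largest gap between group means of the transferrin receptor was 10.3 CPM, between VEG-NBW and MILK-NBW, against group SDs of 9.62 to 15.9 CPM, and these groups overlapped over most of their range.

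STEAP3, the endosomal ferrireductase, was at 16.2 ± 6.66 CPM in VEG-NBW, 17.8 ± 4.42 in VEG-IUGR, 22.6 ± 8.92 in MILK-NBW and 16.3 ± 7.48 in MILK-IUGR. Its lowest, median and highest piglets were at 6.52, 16.4 and 27.6 CPM in VEG-NBW, 10.8, 18.02 and 25.7 in VEG-IUGR, 10.6, 18.9 and 36.6 in MILK-NBW, and 8.69, 14.2 and 33.02 in MILK-IUGR. The higher mean of MILK-NBW came with 3 piglets at 30.4, 31.1 and 36.6 CPM, all males, while its other 5 lay between 10.6 and 19.8 CPM, within the range of the other groups.

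The RNA of the iron regulatory proteins varied least. IREB2 was at 81.4 ± 8.84 CPM in VEG-NBW, 79.3 ± 7.68 in VEG-IUGR, 82.5 ± 5.06 in MILK-NBW and 81.5 ± 5.94 in MILK-IUGR. ACO1 was at 64.4 ± 4.09, 67.1 ± 3.56, 69.0 ± 7.70 and 65.9 ± 4.89 CPM in the same order. All piglets lay between 62.9 and 90.2 CPM for IREB2 and between 54.3 and 79.4 CPM for ACO1, and the ACO1 level of MILK-NBW included both the lowest and the highest piglet of the study.

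Among the genes of export and transport, SLC40A1 was at 39.8 ± 7.50 CPM in VEG-NBW, 38.9 ± 4.57 in VEG-IUGR, 41.8 ± 9.08 in MILK-NBW and 38.1 ± 3.98 in MILK-IUGR, with piglets from 25.9 to 60.8 CPM. Ferroportin RNA thus had nearly the same mean in the 4 groups. CP was at 12.7 ± 4.21 CPM in VEG-NBW, 13.7 ± 5.26 in VEG-IUGR, 15.4 ± 3.35 in MILK-NBW and 16.3 ± 5.99 in MILK-IUGR. The lowest, median and highest piglets for CP were at 8.03, 11.6 and 19.3 CPM in VEG-NBW, 5.65, 14.2 and 22.2 in VEG-IUGR, 10.4, 15.4 and 21.3 in MILK-NBW, and 7.25, 15.8 and 26.4 in MILK-IUGR. Both MILK means of ceruloplasmin were above both VEG means, with a largest gap of 3.61 CPM against group SDs of 3.35 to 5.99 CPM.

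TF was at 318 ± 153 CPM in VEG-NBW, 374 ± 172 in VEG-IUGR, 395 ± 120.2 in MILK-NBW and 394 ± 121 in MILK-IUGR. The lowest, median and highest piglets were at 125, 363 and 504 CPM in VEG-NBW, 213, 321 and 762 in VEG-IUGR, 213, 436 and 524 in MILK-NBW, and 252, 382 and 649 in MILK-IUGR. The lower mean of VEG-NBW came with 3 piglets at 125, 146 and 159 CPM, below every piglet of the other groups, while its other 5 lay between 361 and 504 CPM. In VEG-IUGR, piglet 227 stood alone at 762 CPM, the highest transferrin level of the study.

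**Figure D1:**
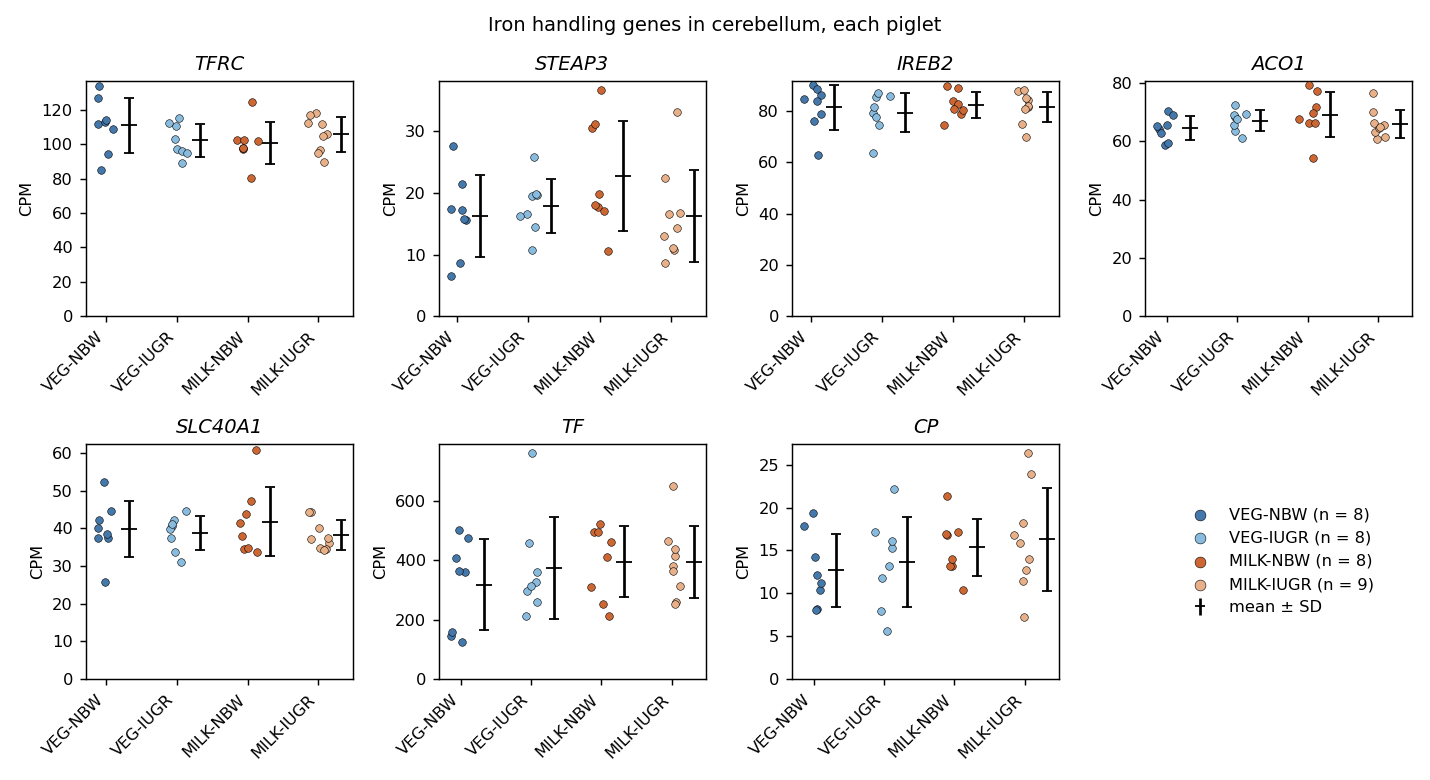
Level of the 7 measured iron genes in CPM (linear axis from 0) in each of 33 piglets by group; each point is a piglet, and the bar beside it the mean ± SD. The 4 groups overlap in every panel, with the points of TF, CP and STEAP3 spread widely and those of IREB2 and ACO1 close together.

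Between any pair of the 4 groups the ranges of piglets overlapped for each of the 7 genes, in 42 of 42 pairs. This was so for nearly every gene: 0.0391% of the 15356 genes tested had ranges that did not overlap in at least 1 pair of groups. What set the iron genes apart from each other was how much they varied between piglets. The coefficient of variation over the 33 piglets was 39.8% for STEAP3, 37.6% for TF and 33.3% for CP, against 16.1% for SLC40A1, 11.6% for TFRC, 8.34% for IREB2 and 7.97% for ACO1. Counting error alone would give 1.22% (TF) to 6.14% (CP), so it was the smaller share of the spread of STEAP3, TF and CP. The highest piglet was 6.09-fold above the lowest for TF, 5.61-fold for STEAP3 and 4.67-fold for CP, but 1.43-fold for IREB2. By the SD of log2 CPM, 7.54% of the 15356 genes tested varied more than TF, 8.33% more than STEAP3 and 11.99% more than CP, and 84.2% and 89.4% varied more than IREB2 and ACO1. In RNA, TF, CP and STEAP3 were thus among the more variable genes of this tissue, and IREB2 and ACO1 among the steadier ones.

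The first question of the design was whether the fat source of the formula changed these levels. For MILK against VEG, 0 of the 7 iron genes passed a Benjamini-Hochberg adjusted p-value under 0.05 in edgeR's quasi-likelihood test with sex and birth weight in the model, as did 0% of the 15356 genes tested. At an unadjusted p-value under 0.05 the count was 0 of 7, against 4.26% of all genes. The largest difference was that of CP, with a log2 fold change of 0.26 (SE 0.16, adjusted p = 0.985), and a 95% interval of 0.957- to 1.501-fold. TF had a log2 fold change of 0.19 (SE 0.19, adjusted p = 0.985; 0.877- to 1.48-fold) and STEAP3 one of 0.14 (SE 0.18, adjusted p = 0.985; 0.856- to 1.41-fold). The steadier genes were bounded more closely. The interval for TFRC was 0.895- to 1.06-fold (log2 fold change −0.04), for SLC40A1 0.910- to 1.12-fold (0.02), for IREB2 0.957- to 1.09-fold (0.03) and for ACO1 0.965- to 1.09-fold (0.04). The median log2 fold change of the 7 genes was 0.035, against −0.0035 over all genes, and the median absolute value was 0.041 against 0.051.

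For birth weight, IUGR against NBW, 0 of 7 genes passed the adjusted test in edgeR (0% of all genes) and 0 of 7 had an unadjusted p-value under 0.05 (2.19% of all genes). The log2 fold change was −0.16 for STEAP3 (SE 0.18, 0.698- to 1.15-fold), 0.11 for CP (SE 0.16, 0.860- to 1.3501-fold) and 0.10 for TF (SE 0.19, 0.824- to 1.40-fold). It was −0.07 for SLC40A1, the smallest p-value of the 7 (adjusted p = 0.9996, edgeR), and −0.03 for both TFRC and IREB2. ACO1 was nearest to no difference (−0.0046, 0.938- to 1.06-fold). The median log2 fold change of the 7 was −0.025, against −0.00064 over all genes, and the median absolute value 0.074 against 0.045. TFRC, whose message is known to be stabilised in iron-poor cells, was within 0.905- to 1.07-fold between the birth weights.

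Whether the diets acted differently by birth weight was tested as the MILK minus VEG difference in IUGR piglets less that in NBW piglets. In edgeR, 0 of 7 genes passed the adjusted test (0% of all genes) and 0 of 7 had an unadjusted p-value under 0.05 (6.09% of all genes). The largest value was that of STEAP3, a log2 difference of −0.53 (SE 0.35, adjusted p = 0.803), with a 95% interval from −1.25 to 0.18. TFRC had 0.18 (SE 0.11, adjusted p = 0.803) and ACO1 −0.12 (SE 0.084, adjusted p = 0.806). Those of TF (−0.26), SLC40A1 (−0.07), IREB2 (0.02) and CP (−0.02) had adjusted p-values of 0.899 to 0.994. The intervals of TF, CP and STEAP3 spanned 2-fold or more from end to end in this comparison.

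**Figure D2:**
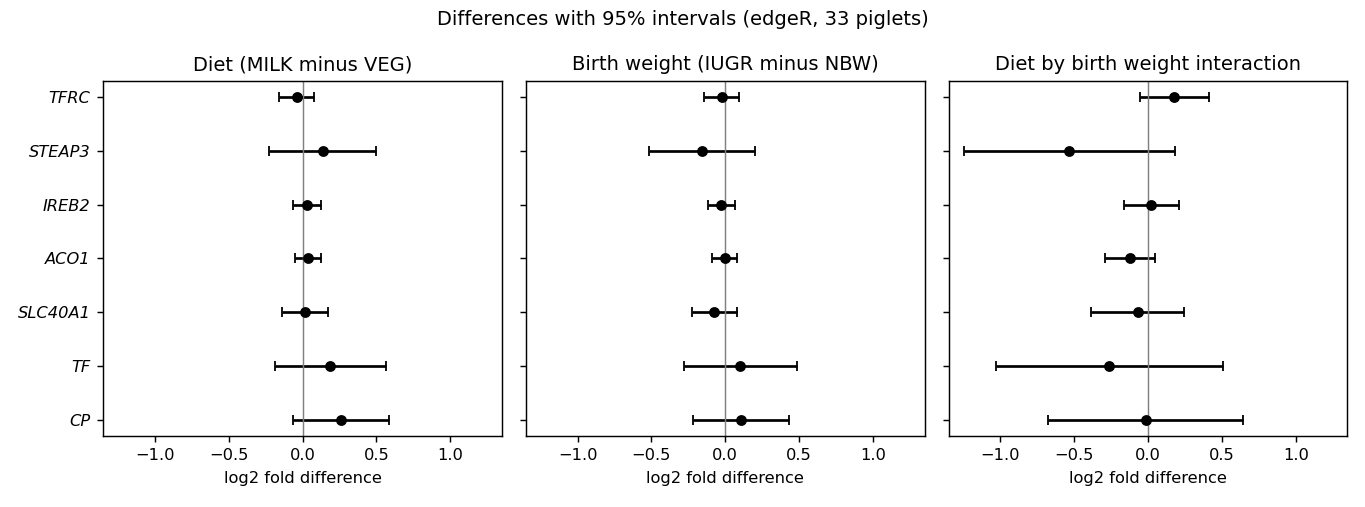
Difference in log2 CPM (horizontal axis, log2 fold difference) for diet, birth weight and their interaction in each of the 7 genes, as the edgeR estimate with its 95% interval over 33 piglets. Each interval spans 0, and those of STEAP3, TF and CP are the widest.

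The 4 contrasts between groups share piglets with each other and with the tests above, and their values are given side by side. For MILK-NBW against VEG-NBW, STEAP3 had a log2 fold change of 0.41 (SE 0.25, adjusted p = 0.766, edgeR), ACO1 one of 0.10 (adjusted p = 0.767) and TFRC one of −0.13 (adjusted p = 0.770), and 0 of 7 passed at an adjusted (0% of all genes) or unadjusted (6.67%) p-value under 0.05. For MILK-IUGR against VEG-IUGR, the same genes had −0.12, −0.02 and 0.04, and the smallest p-value was that of CP (0.25, adjusted p = 0.996, edgeR), with 0 of 7 past either threshold (0% and 3.9% of all genes). For VEG-IUGR against VEG-NBW, the smallest p-value was that of TFRC (−0.11, adjusted p = 0.9996, edgeR), again with 0 of 7 past either threshold (0% and 2.29%). For MILK-IUGR against MILK-NBW, it was that of STEAP3 (−0.42, SE 0.24, adjusted p = 0.771, edgeR), with 0 of 7 past either threshold (0% and 6.24%). In none of the 4 contrasts was a difference of an iron gene thus detected, and STEAP3 in MILK-NBW was the value farthest from the rest.

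Sex was a covariate of every fit and was also tested. For males against females, 0 of 7 genes passed the adjusted test in edgeR (0.163% of all genes) or an unadjusted p-value under 0.05 (2.94%). STEAP3 was nearest, with a log2 fold change of 0.32 (SE 0.18, adjusted p = 0.9997). The kept groups held 3 females and 5 males in MILK-NBW, 5 females and 4 males in MILK-IUGR, and 4 of each in both VEG groups. With all 36 libraries in the fit, none of the comparisons gave any of the 7 genes an unadjusted p-value under 0.05, and the smallest was 0.0715 for VEG-IUGR against VEG-NBW.

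The rest of the pathway was read from a list of 68 other iron genes, of which 60 had an identifier and 51 passed the filter on low counts. None of the 51 passed the adjusted test for diet, birth weight or the interaction, in edgeR or with DESeq2 or limma. At an unadjusted p-value under 0.05, 2 of 51 were higher and 0 lower for diet, 0 for birth weight, and 3 higher and 0 lower for the interaction, against the 4.26%, 2.19% and 6.09% of all genes given above. By subgroup, 11 genes of uptake and reduction, 6 of storage and release, 6 of export and its oxidases, 10 of sensing and hepcidin control and 18 of mitochondrial iron and haem synthesis were tested. Their median log2 fold changes for diet lay between −0.040 (storage) and 0.060 (export).

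The storage gene FTL was at 730 ± 157 CPM in VEG-NBW, 794 ± 155 in VEG-IUGR, 767 ± 84.9 in MILK-NBW and 712 ± 105 in MILK-IUGR. Its log2 fold change in edgeR was −0.05 for diet (SE 0.083, adjusted p = 0.985), 0.0015 for birth weight and −0.23 for the interaction (SE 0.16, adjusted p = 0.809). In this fit of 33 libraries no difference of the ferritin light chain was thus detected either. With all 36 libraries the FTL interaction was −0.94 (SE 0.38, unadjusted p = 0.0172, adjusted p = 0.810, edgeR). NCOA4, the receptor that delivers ferritin for breakdown, had group means between 140.3 and 151 CPM.

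The unadjusted p-values under 0.05 fell on genes of different roles. For diet, LRP2, the multi-ligand receptor megalin, had a log2 fold change of 0.41 (SE 0.16, adjusted p = 0.985, edgeR), with 7.19 ± 2.90 CPM in VEG-NBW, 6.12 ± 1.93 in VEG-IUGR, 8.31 ± 1.33 in MILK-NBW and 9.15 ± 1.62 in MILK-IUGR. ISCA2, a factor for mitochondrial iron-sulfur clusters, had 0.14 (SE 0.059, adjusted p = 0.985, edgeR). For the interaction, the metalloreductase STEAP2 had 0.35 (SE 0.13, adjusted p = 0.784, edgeR), with 27.3 ± 2.53, 24.9 ± 4.51, 23.6 ± 2.14 and 27.6 ± 3.38 CPM in the VEG-NBW, the VEG-IUGR, the MILK-NBW and the MILK-IUGR piglets. CISD2, an iron-sulfur protein of outer mitochondrial and endoplasmic reticulum membranes, had 0.33 (SE 0.15), and FBXL5, the iron-sensing ubiquitin ligase subunit that removes IREB2 protein, had 0.18 (SE 0.085), both with an adjusted p of 0.784 in edgeR. The STEAP2 means were higher in VEG-NBW and MILK-IUGR than in the other groups, whereas the STEAP3 mean was highest in MILK-NBW, and neither passed the adjusted test.

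Red blood cell genes were read as well, of which 8 of 11 had an identifier and 5 passed the filter. How far their RNA reflects blood left in the tissue was not tested. HBB, the beta-globin gene, was at 7.18 ± 5.66 CPM in VEG-NBW, 8.89 ± 11.8 in VEG-IUGR, 4.76 ± 1.93 in MILK-NBW and 2.74 ± 1.14 in MILK-IUGR. The medians were 5.22, 5.14, 5.02 and 2.92 CPM in the same order, and the highest VEG-IUGR piglet was at 37.2 CPM. The log2 fold change of HBB for diet was −1.09 (SE 0.34, adjusted p = 0.985, edgeR). For diet, 0 of the 5 genes had a positive value, against 7374 of the 15356 genes tested. Of the 5, 1, HBB, had an unadjusted p-value under 0.05 in edgeR, as did 4.26% of all genes. The HBB value was −1.82 with all 36 libraries and −0.52 with limma. The median log2 fold change of the 5 genes was −1.09 for MILK-IUGR against VEG-IUGR and −0.057 for MILK-NBW against VEG-NBW. At an unadjusted p-value under 0.05 in edgeR, 3 of 5 were lower in the first contrast, where 3.9% of all genes passed. In the second it was 0 of 5, against 6.67% of all genes. The 5 are markers of the same cell type and do not count as separate results. For the interaction, 0 of 5 passed an adjusted or unadjusted p-value under 0.05 (0% and 6.09% of all genes), and HBB had −1.04 (SE 0.66, adjusted p = 0.803, edgeR). The summed level of the list was 6.04 to 29.8 CPM in VEG-NBW, 3.25 to 71.5 in VEG-IUGR, 4.74 to 16.3 in MILK-NBW and 2.47 to 10.8 in MILK-IUGR. The score of this list had a correlation with TFRC of 0.14 and with the other 6 iron genes of −0.26 to 0.33.

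Since the groups did not separate the genes, the piglets themselves were compared. The correlations that follow are descriptions over the 33 piglets, which share a sequencing study and the scaling of their libraries, and they carry no test. Of the 21 pairs among the 7 genes, TF and CP were closest, with Pearson r = 0.75 (Spearman rho 0.74). Without the 2 piglets farthest from the median TF level r was 0.70, and after removing the means of the 4 groups and of sex it was 0.75. The pair was alike in the 16 females (0.78) and the 17 males (0.75). SLC40A1 had r of 0.48 with TF, 0.49 with CP and 0.52 with STEAP3, the last being −0.01 in females and 0.61 in males. TFRC had no r beyond −0.24 to 0.17 with any other of the 7 genes, and the r between the IRP genes ACO1 and IREB2 was −0.16. FTL, which is not among the 7, had r of −0.36 with TFRC, 0.53 with SLC40A1, 0.43 with TF and 0.36 with CP. With IREB2, ACO1 and STEAP3 the r of FTL was −0.07, 0.21 and 0.18. By sex, r of TFRC was −0.52 in females and −0.02 in males with TF, −0.50 and 0.20 with CP, and −0.73 and 0.23 with ACO1. The differences in r between the sexes were not tested.

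Transferrin and ceruloplasmin also followed the genes of oligodendrocytes. A score was taken as the mean standardised log2 CPM of 8 oligodendrocyte markers (MBP, MOG, MAG, CNP, CLDN11, ERMN, UGT8 and OPALIN). CP had r = 0.88 (rho 0.89) with this score and TF r = 0.78 (rho 0.74). Within females and males r was 0.87 and 0.88 for CP, and 0.85 and 0.77 for TF. Without the means of groups and sex it was 0.88 for CP and 0.77 for TF. For TFRC r was −0.25 over all 33 piglets, with −0.72 in females and 0.11 in males, and for IREB2, ACO1, STEAP3 and SLC40A1 it lay between 0.20 and 0.38.

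The piglets at the ends of the score are examples of the correlations above and not a separate result. Piglets 205 and 200 (both VEG-NBW) and 201 (VEG-IUGR) had the lowest 3 scores, −1.92, −1.46 and −1.67. Piglet 200 had the lowest TF level (125 CPM), piglet 205 the next (146 CPM), and piglet 201 the lowest CP level (5.65 CPM). Piglets 227 (VEG-IUGR) and 207 (MILK-IUGR) had the highest scores, 2.24 and 1.51, with TF levels of 762 and 649 CPM, and piglet 207 had the highest CP level (26.4 CPM). Not every piglet followed, as piglet 211 (VEG-IUGR) had a score of 0.93 with a TF level of 260 CPM. In bulk tissue, fewer oligodendrocytes and less RNA of these genes per cell cannot be told apart.

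**Figure D3:**
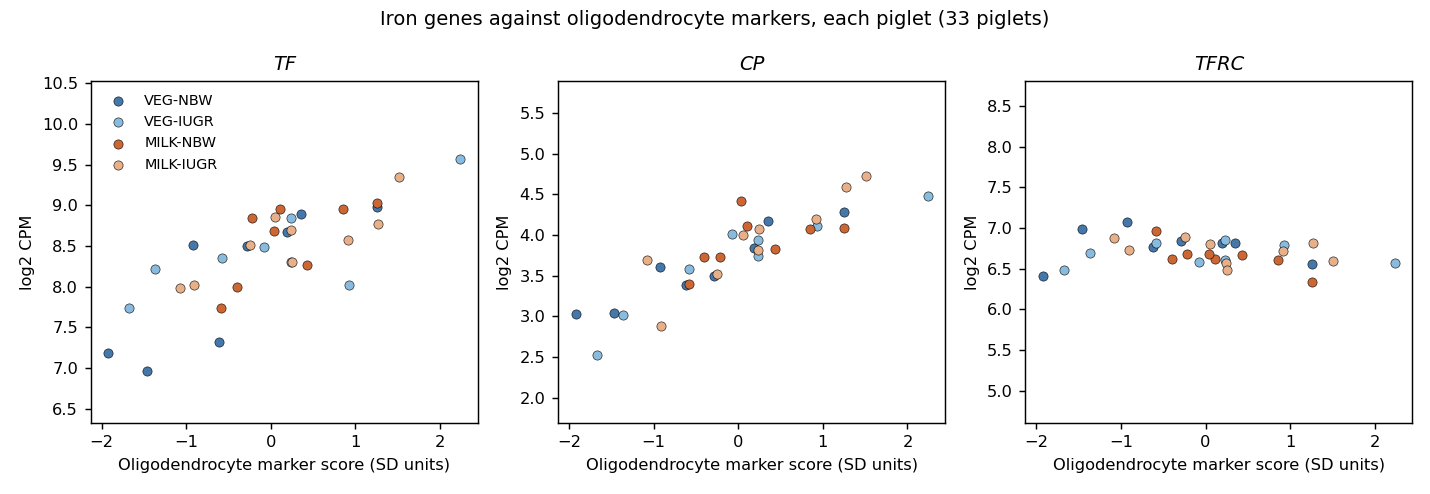
Level of TF, CP and TFRC (log2 CPM, vertical axis) against the oligodendrocyte marker score (SD units, horizontal axis) in each of 33 piglets, coloured by group. TF (r = 0.78) and CP (r = 0.88) climb with the score while TFRC (r = −0.25) does not, and piglets of the 4 groups are mixed along the axis.

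For diet and for birth weight, the oligodendrocyte genes had differences of the same sign as those of CP and TF. The median summed level of the 8 markers was 10286 CPM in VEG-NBW (range 5684 to 19408), 11343 in VEG-IUGR (6334 to 31640), 13790 in MILK-NBW (9510.4 to 21506) and 12982 in MILK-IUGR (8077 to 19850). All 8 markers had a positive log2 fold change for diet (median 0.15) and for birth weight (median 0.15). Of the 15356 genes tested, 7374 were positive for diet and 7624 for birth weight. The 8 are markers of the same cell type and do not count as separate results. For neither diet nor birth weight did any of the 8 have an unadjusted p-value under 0.05 in edgeR (4.26% and 2.19% of all genes). For MILK against VEG, the marker median was 0.26 in NBW and 0.030 in IUGR piglets. In the same order CP had 0.27 and 0.25, and TF 0.32 and 0.06, so CP did not share the smaller IUGR value. The part of the marker genes in the diet values of CP (0.26) and TF (0.19) was not tested.

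Other cell types were read in the same way. SLC40A1 had r = 0.62 with the score of 7 astrocyte and Bergmann glia markers, 0.51 with 6 endothelial markers, 0.50 with 7 microglia and macrophage markers and −0.64 with 7 granule neuron markers. In females and males the SLC40A1 values were 0.43 and 0.69 (astrocyte), 0.25 and 0.68 (endothelial), and 0.45 and 0.63 (microglia). Without the 2 piglets farthest from the median astrocyte score, the astrocyte value of SLC40A1 was 0.44. CP had 0.64 with the astrocyte, 0.60 with the microglia and −0.60 with the granule neuron score, and TF had 0.50, 0.57 and −0.44, so both also varied with other glial genes. STEAP3 had 0.51 with the astrocyte and −0.55 with the granule neuron score, but these were 0.00012 and −0.06 in females, against 0.70 and −0.63 in males. The granule neuron values of SLC40A1 (−0.18 and −0.71), TF (−0.09 and −0.65) and CP (−0.28 and −0.72) were also closer to 0 in females than in males. IREB2 had −0.57 with the Purkinje cell score, with −0.62 in females and −0.53 in males. The choroid plexus, which makes transferrin and ceruloplasmin in many mammals, was read from 6 markers of 8 listed. Its score had r of −0.08 with TF and −0.01 with CP, while the summed level of its markers ran from 26.5 to 271 CPM in VEG-NBW, 87.0 to 357 in VEG-IUGR, 42.9 to 145 in MILK-NBW and 41.1 to 1710 in MILK-IUGR. These markers did not move together. For MILK-NBW against VEG-NBW, 1 of the 6, SLC4A5, had a positive log2 fold change (2.03), while TTR had −2.60. The score is therefore a weak measure of choroid plexus, and little can be read from its r values.

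**Figure D4:**
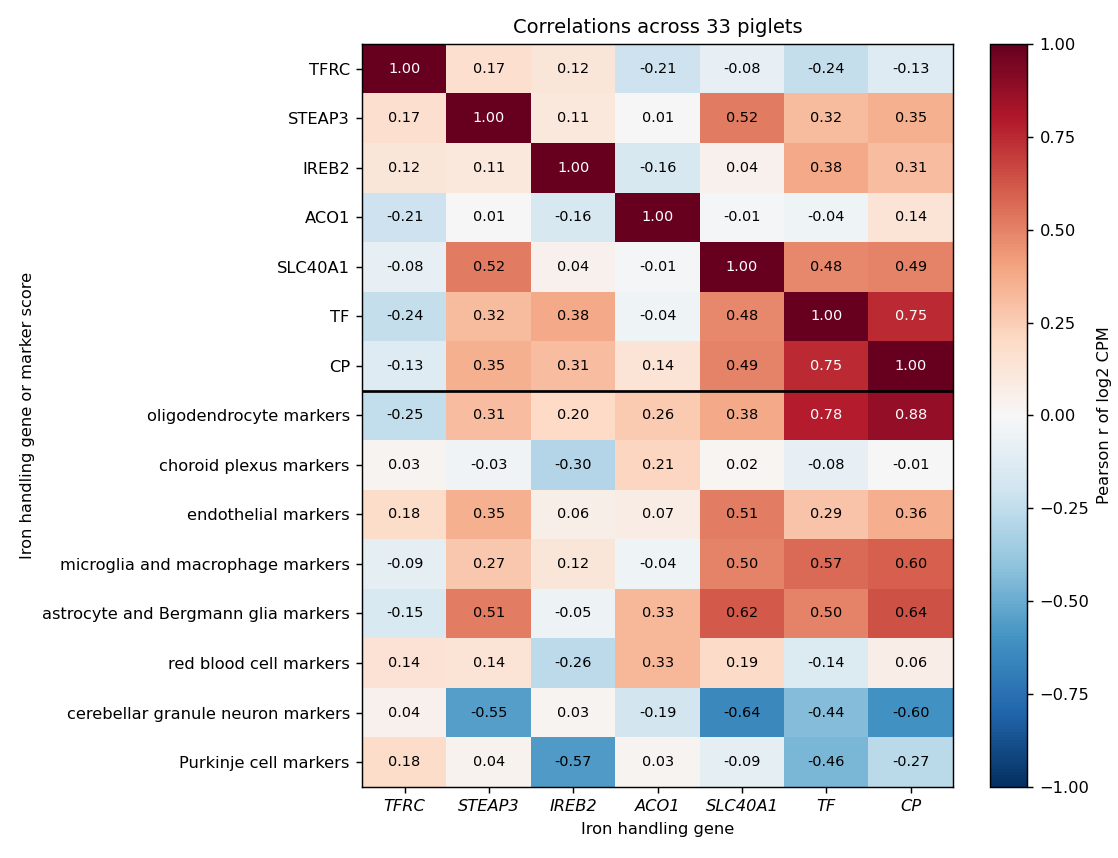
Pearson r of log2 CPM over 33 piglets between the 7 iron genes (columns) and, in rows, the same genes and 8 scores of cell type markers, on a colour scale from −1 to 1. The darkest cells off the diagonal are CP with oligodendrocyte markers (0.88), TF with oligodendrocyte markers (0.78) and TF with CP (0.75).

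Library measures moved with some of these genes. The share of read pairs left without a gene had r of −0.68 with SLC40A1, −0.50 with STEAP3, −0.48 with TF and −0.38 with CP. In females and males these were −0.35 and −0.76 for SLC40A1, 0.16 and −0.69 for STEAP3, −0.17 and −0.72 for TF, and −0.34 and −0.39 for CP. Over both sexes, without the 2 libraries farthest from the median share, the values were −0.46, −0.33, −0.39 and −0.30. For TFRC, IREB2 and ACO1 the r was 0.18, 0.14 and 0.04, and with the total count on genes no iron gene had an r beyond −0.23 to 0.12. The part of this share in the correlations above was not tested. The correlations rest on leaving out the 3 libraries: with all 36, r between TF and CP was 0.17, between TF and the oligodendrocyte score 0.57, and between SLC40A1 and CP 0.93, with piglet 210 at 0 counts of SLC40A1, CP and STEAP3.

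For each iron gene, the genes with the most similar pattern were sought among 12515 genes with a symbol, by Pearson r over the 33 piglets after removing the means of groups and of sex. CP was closest to UGT8 (0.92), the enzyme that makes the myelin lipid galactosylceramide, and ERMN (0.91), a cytoskeletal protein of oligodendrocytes, both on the marker list above. TF was closest to VXN (0.84) and TMEM144 (0.83). SLC40A1 was closest to CYBRD1 (0.89), a ferric reductase on the list of iron uptake genes, and to UQCRC2 (0.82), a subunit of respiratory complex III.

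IREB2 was closest to PYGO1 (0.84), a cofactor of Wnt signalling, and PTAR1 (0.82), and ACO1 to FKBP15 (0.76) and KLHL12 (0.67). STEAP3 was closest to PHYH (0.69), a peroxisomal enzyme of fatty acid oxidation, and FAM167A (0.68). TFRC was closest to OPA1 (0.58), which fuses mitochondrial inner membranes, and VRK1 (0.57), the lowest values of the 7. The best match of the transferrin receptor was thus looser than that of any other iron gene measured.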

How the data were processed

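The authors deposited 1 table of raw counts per piglet, in the form of htseq-count. The submitters' processing notes name Trim Galore, HISAT2, HTSeq, DESeq2 and the build Sscrofa11.1. The annotation release and strand setting are not given in the sources used here, so reads of overlapping antisense genes cannot be told apart. The study left out 1 library of VEG-NBW, VEG-IUGR and MILK-NBW for low RNA integrity without naming it. Here the library of each with the largest share of read pairs without a gene was left out, and 33 were used. Tests used edgeR 4.0.16 under R 4.3.3 (TMM, filterByExpr with a minimum count of 10, quasi-likelihood F test, sex as covariate), checked on simulated data. Diet and birth weight were tested without their interaction, and the interaction and contrasts in a model of the 4 group means. P-values were Benjamini-Hochberg adjusted over 15356 genes. DESeq2 1.42.0, limma 3.58.1, other filters, no sex covariate and all 36 libraries were alternatives. Correlations used log2 CPM with a prior count of 2. The 10 genes and all lists were chosen with earlier results of these data known. Named besides the 10 were the 2 genes most alike to each and listed iron genes with an unadjusted p-value under 0.05, at most 4 per comparison. FTL, NCOA4 and HBB were named after their values were seen. One listed oligodendrocyte marker is not reported here and was left out of its list.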

Additional observations from a re-analysis of the deposited data

Results flagged for a closer look

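TF in VEG-IUGR, at 761.6 CPM in piglet 227, lay far from the other 7 piglets of its group, the next of which was at 458 CPM. The gap over the range was 0.552, above Dixon's critical value for 8 samples. It was 1 of 28 sets of a gene and a group examined, and chance flags about 1 in 20. The same piglet had the highest oligodendrocyte score of the 33 (2.24). What part the marker genes had in its TF level was not tested.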

How the results depend on the processing

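In none of 8 alternatives did 1 of the 7 iron genes reach an unadjusted p-value under 0.05. For these 7, the alternatives below thus turned only directions of differences that did not reach that threshold in any fit. With all 36 libraries the log2 difference reversed for TFRC (diet, 0.0079), IREB2 (diet −0.10, birth weight 0.088, interaction −0.14), ACO1 (birth weight, 0.0031), SLC40A1 (interaction, 0.10) and CP (interaction, 0.16). In that fit the median of all genes was 0.14 for the interaction, 0.13 for MILK-IUGR against VEG-IUGR and −0.12 for VEG-IUGR against VEG-NBW. The interaction of FTL, which is not among the 7, was −0.94 there (unadjusted p = 0.0172, adjusted p = 0.810, edgeR). With limma it reversed for SLC40A1 (diet, −0.029), TFRC (birth weight, 0.0096), ACO1 (birth weight, 0.015) and FTL (birth weight, −0.053). With 1 MILK-IUGR library less it reversed for CP (interaction, 0.031) and FTL (birth weight, −0.014). Correlations with all 36 libraries were compared for 21 pairs of iron genes and 56 pairs of an iron gene and a marker score. Of these, 54 moved outside the 95% interval of r over the 33 piglets, so most depend on the libraries left out. Over all genes, the count at an adjusted p-value under 0.05 was 0 for diet, birth weight and the interaction in every fit. For MILK-NBW against VEG-NBW it was 0 in edgeR, 2 with DESeq2 and 1 with limma. For MILK-IUGR against MILK-NBW it was 0 in edgeR and 1 each with DESeq2, DESeq2's size factors, limma, at least 10 counts in every library, and no sex covariate. For sex it was 25, and 7 with at least 10 counts in every library. The cause was not tested. CP and STEAP3, with medians of 263 and 309 counts a library, carried the largest counting error. No paired analysis was possible because no numbers in the labels pair piglets across groups.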
